A study of Arabidopsis thaliana with 10 samples.

Results

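The white light column of the shift from PSI light to PSII light is 1 of 10 columns of leaf transcript ratios from Arabidopsis thaliana (Col-0). It was chosen by its label, and it describes plants kept in white light, filed beside the plants that were moved from light favouring photosystem I (PSI light) to light favouring photosystem II (PSII light). Of 644 genes that had a filter spot of their own, 609 had a ratio above 0 in this column and are described here. The other 35 were listed at 0, so no log2 value could be formed for them, and a 0 may be a spot that failed.

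All plants were Col-0 and were first grown on soil in white light for 21 days on a cycle of 8 h of light and 16 h of dark. The column was set beside plants at 30 min, 2 h, 8 h and 48 h of PSII light, which had spent 3 days in PSI light before. It was also set beside the white light column filed with the opposite shift, from PSII light to PSI light. Material was pooled from 250 to 500 plants. The design names 3 independent experiments for each time, but the table holds 1 ratio per spot and condition, so no ratio below carries a replicate error and no test was possible. The labels call the source thylakoid membranes, whereas the protocols describe total RNA from leaf material. Ratios hold no levels, so the tissue could not be checked against leaf markers, and fewer cells of a type cannot be told apart from less RNA per cell.

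Photosynthetic electron transport runs through the photosystems in series, and plants adjust the balance between them when the colour of light favours one over the other. The redox state of the carriers between the photosystems and of chloroplast thiol proteins is a known signal in that adjustment. White light is not selected to favour either photosystem, unlike PSI light and PSII light.

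What the white light ratio is divided by is not stated. It was read as white light plants over the plants sampled in PSI light before the shift, which the design text makes likely without settling it. Were the ratio inverted, each value above the median would lie below it and the reverse. The median ratio of the column was 0.796, so all values are given as the log2 ratio minus the median log2 ratio of the column, over 3031 features with a ratio. A value of 1 is 2-fold above that median. The column medians of the 4 PSII light times lay between 0.588 and 1.16, and each was centred in the same way.

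Most genes lay near the median in white light. Within 1.5-fold of it were 393 of the 609 genes, or 64.5%, and 534 genes were within 2-fold. The genes 2-fold or more above the median numbered 44, and those 2-fold or more below numbered 31. These are 7.22% and 5.09% of the genes, against 8.45% above and 5.48% below among all features of the filter, so these genes were close to the filter as a whole. Without centring, 27 genes had ratios of 2 or more and 91 had ratios of 0.5 or less, so which side prevails depends on the centre chosen. The middle 50% of the genes ran from −0.43 to 0.33, a width of 0.76. Widths over the genes with a ratio were 0.53, 0.63, 0.39 and 0.96 at 30 min, 2 h, 8 h and 48 h of PSII light, and 0.52 in the other white light column, so the white light column was wider than all of these except 48 h.

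**Figure D1:**
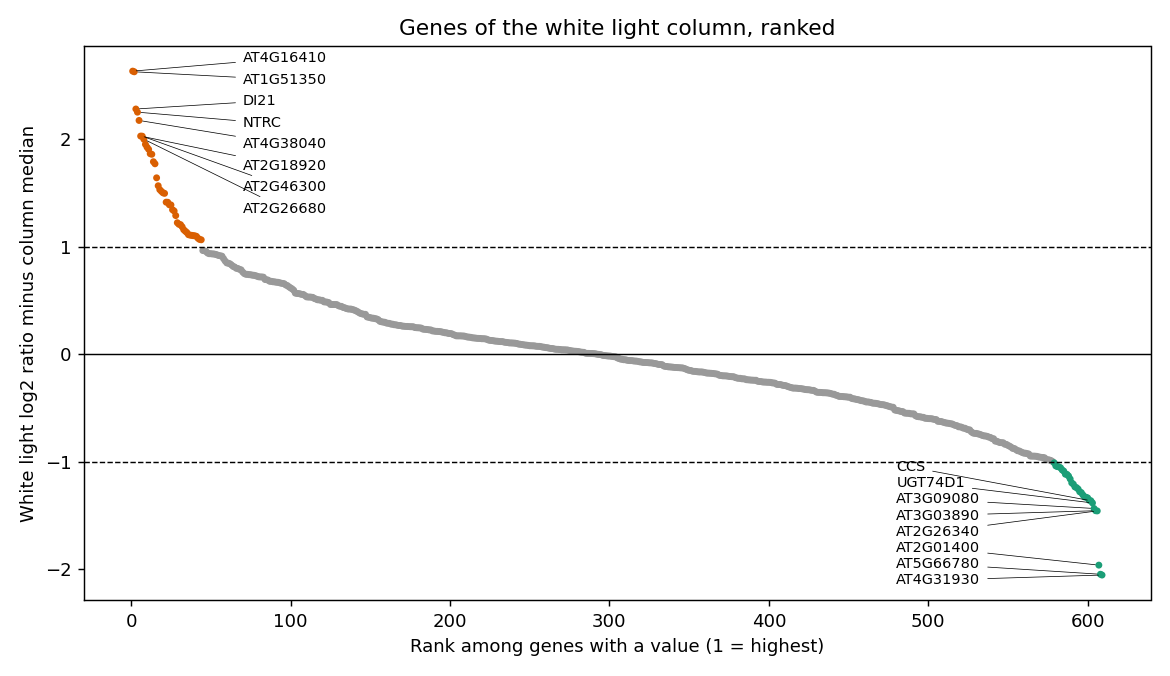
The 609 genes with a white light ratio are ranked from highest to lowest on the horizontal axis, with the log2 ratio minus the column median on the vertical axis. The dashed lines mark 2-fold, and 44 genes lie on or above the upper line and 31 on or below the lower one.

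AT4G16410 and AT1G51350 were the highest genes in white light, at 6.19 and 6.16 times the column median. DI21, a gene known as drought-induced, followed at 4.85 times, and NTRC at 4.75 times. NTRC is a chloroplast NADPH-dependent thioredoxin reductase that passes electrons to thiol enzymes. Another 3 genes, AT4G38040, AT2G18920 and AT2G46300, also passed 4-fold, at 4.51, 4.07 and 4.07 times. The remaining 8 of the 15 highest were AT2G26680, AT2G31800, XERICO, AT2G39100, AT4G32060, AT4G00170, AT4G18180 and AT1G13990, from 3.99 down to 3.41 times the median. XERICO lay at 3.79 times, and its RING-type protein is known for a link to abscisic acid, the hormone of water deficit.

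Set beside the time course, the 15 highest genes did not all have the same profile. These genes were picked by their white light values, so lower values in other columns are partly set by that choice. Their median was 2.00 in white light, against 0.95, 1.52, 0.95 and 1.93 from 30 min to 48 h of PSII light. AT1G51350 had 2.62 in white light, against 2.51, 2.85, 1.65 and 3.50 at these times, so its white light value lay inside the range of the time course. AT4G16410 had 2.63 in white light, against 1.32, 1.52, 0.86 and 2.14, and its white light value was the highest of the 5. NTRC had 2.25 in white light, against 0.67, 1.69, 1.15 and 2.03. DI21 had 2.28 in white light, against 1.44, 1.89, 0.95 and 2.26, so white light and 48 h of PSII light were nearly level for this gene. AT4G18180 had 1.79 in white light, against 0.28, −0.07, −0.42 and 0.10, and was the only one of the 15 below the median at any of these times. All these columns may be set against the same plants, so alike values need no shared response.

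Picking genes for high values in a single column by itself favours smaller values in any other. The other white light column had smaller values for the same 15 genes. Its median for them was 0.44, with a range from −0.50 for AT4G18180 to 1.06 for AT4G16410, against 1.77 to 2.63 in the white light column described here. DI21 had −0.21 and XERICO 0.26 in the other white light column. Both columns carry a white light label, but their references may differ, so these values are given side by side.

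At the low end, AT4G31930 and AT5G66780 both lay at −2.05 and AT2G01400 at −1.96, that is at 0.241, 0.242 and 0.257 times the median. These 3 genes were set apart from the next one, AT2G26340, at −1.46. With a pseudocount of 0.432 added to each ratio, none of the 31 genes 2-fold or more below the median stayed that far below. A pseudocount of this size pulls low ratios toward the median, so this outcome follows from the setting. AT4G31930 had −1.40, −1.20, −1.37 and −1.65 from 30 min to 48 h of PSII light, so it was low in all 5 columns. AT5G66780 had −0.73, −0.73, −0.33 and −0.90, and AT2G01400 had −0.54, −0.74, −0.44 and −0.71, so both were lower in white light than at each time of PSII light.

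The other 12 of the 15 lowest lay between −1.46 and −1.28, and 4 of them have a known name. CCS, the copper chaperone that loads copper into superoxide dismutase, had −1.36 in white light, against −0.02, −0.23, −0.27 and −0.48 at the 4 times. TPP2, which encodes tripeptidyl peptidase II, a large protease, had −1.36, against 0.10, −1.18, −0.82 and −0.23. UGT74D1, a UDP-glucosyl transferase, had −1.38, against −0.06, −0.62, −0.06 and −0.80. DRT101, named for DNA damage repair and toleration, had −1.31, against −0.88, −1.17, −0.20 and −1.40. CCS, TPP2 and UGT74D1 were thus lowest in white light, whereas DRT101 was slightly lower at 48 h. The 15 lowest genes were picked for low white light values, which by itself favours white light being lowest. The 8 without a name were AT2G26340, AT3G03890, AT3G09080, AT2G39670, AT1G29040, AT3G01360, AT1G12100 and AT1G05860.

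**Figure D2:**
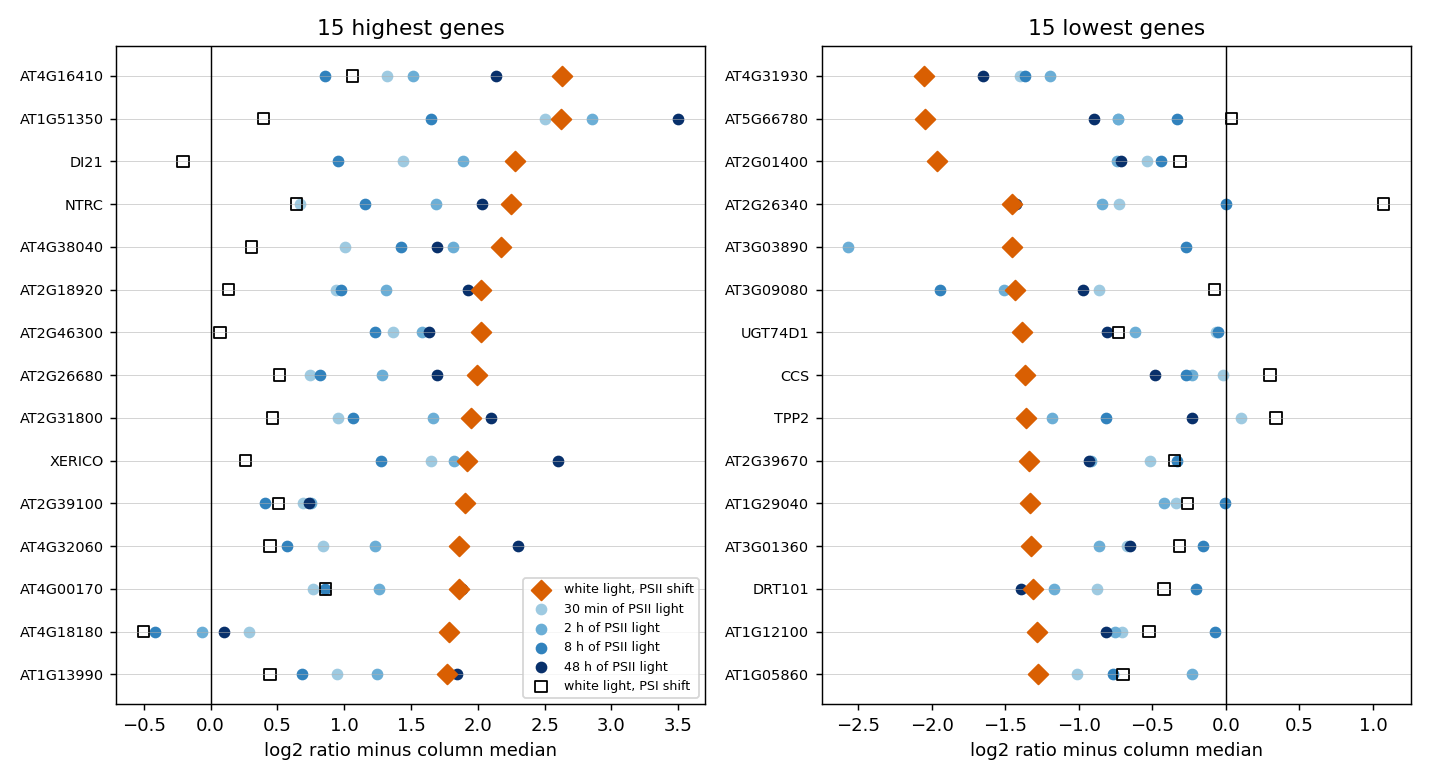
For the 15 highest (left) and 15 lowest (right) genes of the white light column, points give the log2 ratio minus the column median in white light (diamonds), at 4 times of PSII light (circles) and in the other white light column (squares). AT4G18180, at 1.79, stands far to the right of its time points, and in the other white light column DI21 lies at −0.21.

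Missing ratios were not spread evenly over the high and low genes. All 44 genes 2-fold or more above the median had a ratio in each of the 10 columns. Of the 31 genes 2-fold or more below, 21 did and 10 were listed at 0 in at least 1 column, against 58 of all 609 genes. AT3G03890, for example, had ratios in 3 columns, with −1.46 in white light, −2.57 at 2 h and −0.27 at 8 h of PSII light. The part of spots at 0 in the low values was not tested.

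From the genes with a known name, 81 were chosen and grouped by role in 13 lists, and others were left out. Members and lists were chosen with earlier results of these data known, so list medians are descriptions only. Each count past 2-fold stands beside 8.45% above and 5.48% below over all features. With lists of 4 to 14 genes, 1 or 2 genes past 2-fold say little about a list. Of the 6 genes listed for the photosystems 5 lay above the median in white light, beside 292 of all 609 genes, and none passed 2-fold. PSBY and PSBW, small subunits of photosystem II, had 0.81 and 0.73, and PSAN, a lumenal subunit of photosystem I, had 0.74. PSB27 and LPA19, factors of photosystem II assembly, had 0.37 and 0.19. LHB1B2, a chlorophyll-binding antenna protein of photosystem II, was the only one below the median, at −0.40. The median of the 6 genes was 0.55, beside −0.04 for all 609 genes.

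Along the time course PSAN, PSBW, PSBY and PSB27 were lower at 30 min, 2 h and 8 h than in white light. PSAN had 0.74 in white light, against −0.08, −0.96, −0.54 and 0.94 from 30 min to 48 h. PSBW had 0.73 in white light, against 0.04, 0.11, −0.43 and 1.19, and PSBY had 0.81, against 0.05, 0.24, −0.17 and 1.41. PSB27 had 0.37 in white light, against −0.37, −0.38, −0.61 and 0.46. For these 4 genes white light therefore fell between 48 h and all earlier times. LHB1B2 had −0.40, against −0.25, −1.47, −1.38 and 0.08, so white light was above 2 h and 8 h and below the others. LPA19 had 0.19 in white light, against 0.18, 0.14, 0.18 and 0.66, so white light was level with the early times. The median of the 6 genes was 0.55 in white light, against −0.02, −0.13, −0.48 and 0.80 at the 4 times, and 0.11 in the other white light column.

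**Figure D3:**
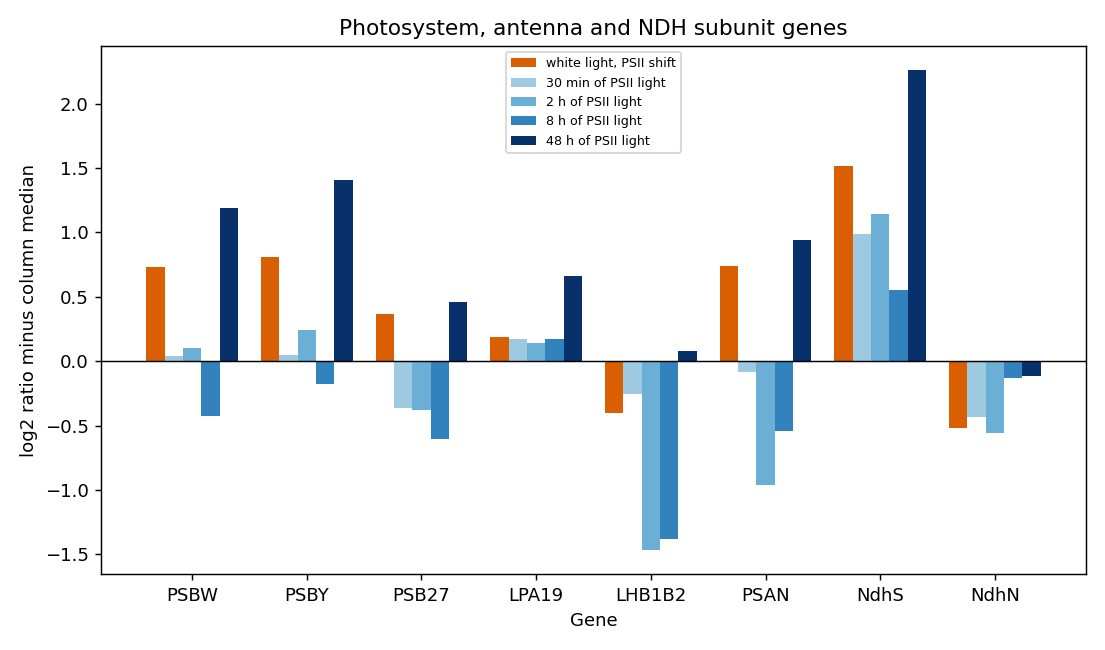
Bars give the log2 ratio minus the column median of 8 genes in white light (orange) and at 30 min, 2 h, 8 h and 48 h of PSII light (light to dark blue), with 1 ratio per bar and no error. PSBW, PSBY, PSB27 and PSAN lie higher in white light than at 30 min, 2 h and 8 h, and lower than at 48 h.

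The chloroplast NDH complex moves electrons around photosystem I and also serves chlororespiration. Of 6 genes listed for its subunits and factors, 1 was 2-fold or more above the median and none was as far below. NdhS, a subunit that forms the ferredoxin-binding site, had 1.51 in white light, against 0.99, 1.14, 0.55 and 2.26 at the 4 times of PSII light and −0.13 in the other white light column. NdhN, another subunit, had −0.52, so the listed subunits lay on opposite sides of the median. CRR41 and CRR21, named for chlororespiratory reduction, had 0.19 and −0.09. OTP85, an organelle transcript processing factor, had −0.27, and PIFI, named for the fluorescence rise after illumination, had −0.23.

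The list for organelle gene expression held 5 genes, chosen from those with a known name, so it does not stand for the whole class. Of the 4 with a ratio, 2 were 2-fold or more above the median, beside 8.45% of all features. mTERF9 (AT5G55580), of a family of organelle gene expression factors, had 1.34 in white light, against 1.11, 1.38, 0.69 and 1.68 at the 4 times. OTP70, an organelle transcript processing factor, had 1.07, against 0.58, 1.01, 0.54 and 0.92. PAC (PALE CRESS), required for chloroplast development, had 0.44, and OSB1, an organellar single-stranded DNA-binding protein, had −0.60. ATAB2, a factor for translation of photosystem messages in the chloroplast, was listed at 0 in white light and had ratios in all other columns.

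Pigment synthesis was mixed. Of 5 genes, 2 were 2-fold or more above the median, beside 8.45% of all features. HEMA3 encodes a glutamyl-tRNA reductase, the entry enzyme of tetrapyrrole synthesis, and lay at 2.23 times the median. Geranylgeranyl reductase (AT1G74470), which makes the phytol tail of chlorophyll, lay at 2.16 times. CHLM, the magnesium-protoporphyrin methyltransferase, was the lowest of the 5, with −0.77 in white light, against −0.37, −0.50, −0.26 and −0.22 at the 4 times. Z-ISO, a carotenoid isomerase, had −0.29 and SIRB, a ferrochelatase of sirohaem synthesis, had 0.24.

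Of 5 genes of carbon metabolism none passed 2-fold. SBPASE, the Calvin-Benson enzyme sedoheptulose-bisphosphatase, was the lowest at −0.79. PRK, the phosphoribulokinase of the same cycle, lay at the median with 0.03. NADP-dependent malate dehydrogenase (AT5G58330), which exports reducing power from the chloroplast, had 0.67 in white light and between 0.56 and 1.14 at the 4 times. PPDK, pyruvate orthophosphate dikinase, and ATSPS4F, a sucrose-phosphate synthase, both had 0.46.

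Of the 13 role lists the thiol and antioxidant genes spread most widely, from −1.36 for CCS to 2.25 for NTRC among 6 genes, with 1 past 2-fold on each side. SRX, the sulfiredoxin that repairs overoxidised peroxiredoxins, had −0.95, just short of 2-fold, against −0.68, −0.65, −0.13 and −0.49 at the 4 times. GLDH, the last enzyme of ascorbate synthesis, had −0.21, and CHL, the chloroplastic lipocalin, had −0.34. GLX2-1, a glyoxalase, had 0.01. The list median was −0.28.

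The water deficit genes split between a high pair and a pair near the median. DI21 and XERICO were 2-fold or more above the median, as given above, while SIS, a salt-induced gene, had 0.17 and MAMI, a mannitol-induced gene, had −0.39. The list was drawn up with the values of DI21 and XERICO known, so its median of 1.05 is a description only.

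Of 7 genes of amino acid, cofactor, nucleotide and fatty acid synthesis, THIC was 2-fold or more above the median. THIC, an enzyme of thiamine synthesis, had 1.08 in white light, against 0.24, 0.15, 0.27 and 1.12 at the 4 times. White light and 48 h were thus its high columns. AT-HF, which acts in histidine synthesis, had 0.93 in white light, against 0.69, 1.68, 1.29 and 1.71, and was thus higher at the 3 later times. UPP, a uracil phosphoribosyltransferase, had 0.74, APS4 had 0.32, CYN (cyanase) had −0.55 and FATB, an acyl-ACP thioesterase, had −0.60. CBL, cystathionine beta-lyase, was listed at 0 in white light.

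Among 5 genes of protein folding, translocation and proteolysis, TPP2 was the only one past 2-fold. The chaperonin subunits Cpn60beta3 and Cpn60beta4, the translocase component SECE1 and the peptidase SPPA lay between −0.21 and 0.03.

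Of 8 signalling genes 1 was 2-fold or more above the median, beside 8.45% of all features, and 6 lay below it, beside 52.1% of all 609 genes. CML30, a calmodulin-like protein, had 1.49 in white light, against 0.70, 0.90, 0.37 and 1.39 at the 4 times, and the related CML41 had −0.36. GLR2.7, a glutamate receptor, had 0.96. RALFL32, a RALF-like peptide, had −0.96 and the protein kinase gene ATSIK had −0.76. AT2G23070, the chloroplast form of casein kinase 2 alpha, stayed at −0.06, and the IQ-domain genes iqd32 and IQD22 had −0.48 and −0.56.

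Of 14 genes of transcription, chromatin and development only chr31 passed 2-fold. This chromatin remodelling gene had 1.56 in white light, against 0.74, −0.51, 0.73 and −0.01 at the 4 times and 0.44 in the other white light column. The other 13 lay between −0.74 for TCP15 and 0.28 for AT4G03090, a nodulin homeobox gene, and the list median was −0.19. Of the 4 genes grouped by name under DNA damage and repair, DRT101 was 2-fold or more below the median. DRT100, the aprataxin-like gene APTX and AT1G78790 had −0.43, 0.43 and 0.26. Of the 6 genes of cell wall and glycosyl transfer, UGT74D1 passed 2-fold below. The glycosyl hydrolase genes GH9B11, GH9B12 and GH9B16 had 0.69, −0.32 and 0.15, and GH9B8 and the cellulose synthase-like gene CSLA01 were listed at 0.

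**Figure D4:**
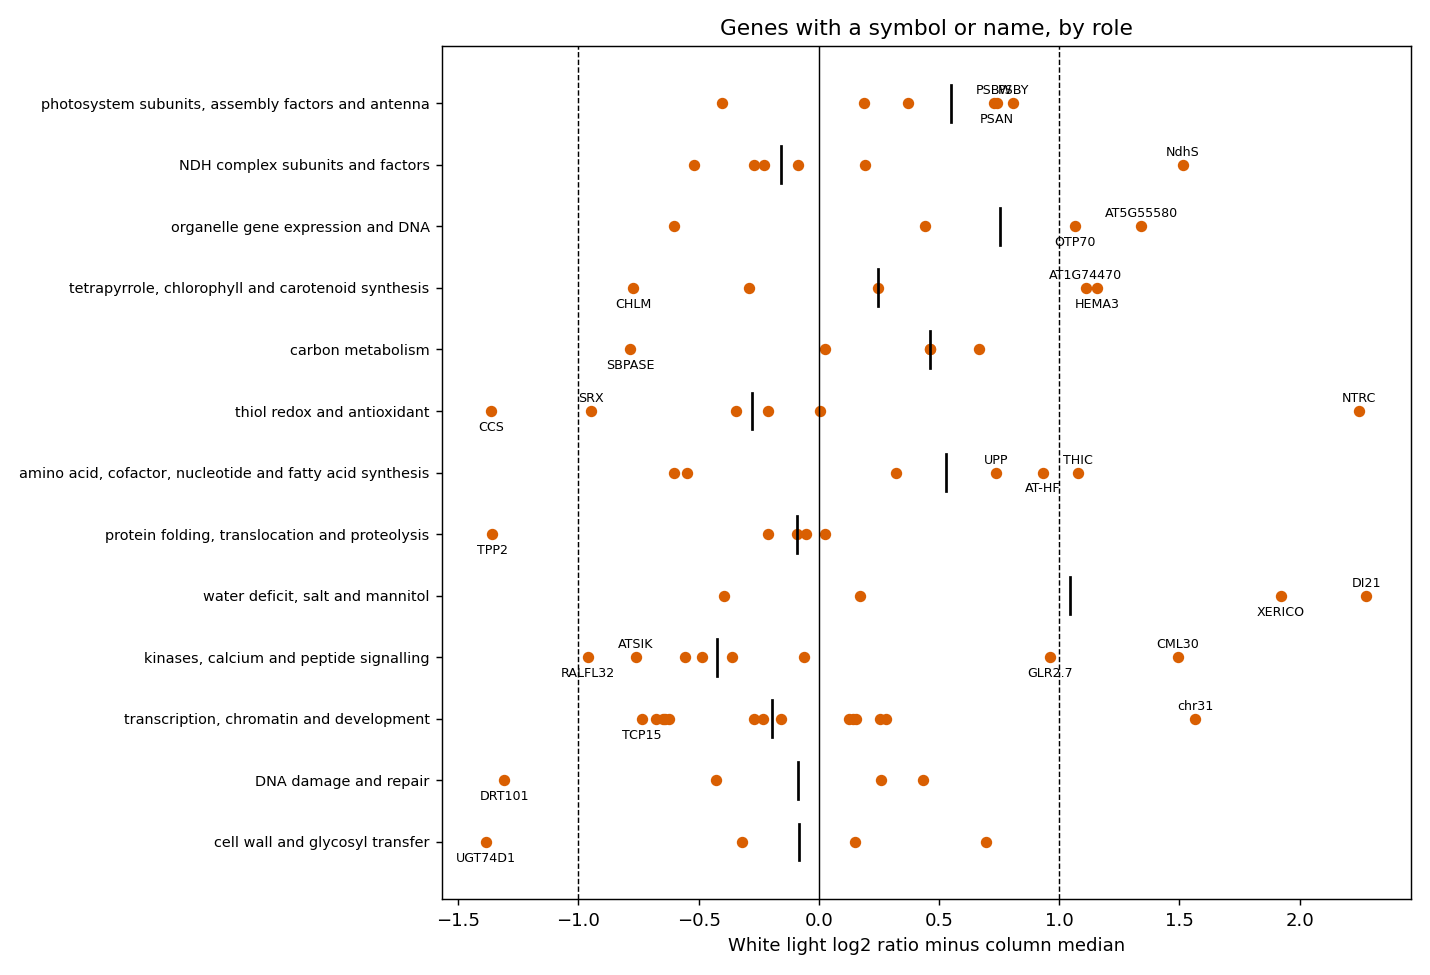
Each point is a gene, placed by its white light log2 ratio minus the column median, with genes grouped by role in 13 rows. Short vertical bars mark the median of each row, from −0.42 for the signalling genes to 1.05 for the water deficit genes, and the dashed lines mark 2-fold.

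White light was then set against the mean of the 4 PSII light times, gene by gene. If these columns share their reference, it drops out of this difference, which then compares white light plants with plants in PSII light. The difference could be formed for 577 genes, and white light was 2-fold or more higher for 9 of them and 2-fold or more lower for 3. Over all features the shares were 1.28% higher and 1.35% lower. White light lay above all 4 times for 111 genes, below all 4 for 136 and inside their range for 330. White light was thus the highest of the 5 columns for 19.2% of these genes and the lowest for 23.6%, close to 18.4% and 23.8% of all 2887 features with a ratio in these columns.

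The genes with the largest differences were picked by that difference, which by itself favours white light lying outside the range of their times. AT4G18180 had the largest difference, at 1.81, and its white light value of 1.79 stood far above its highest time, 0.28 at 30 min. The chromatin remodelling gene chr31 followed with a difference of 1.33, and AT2G36480 with 1.32. AT2G36480 had 1.06 in white light, against −0.18, −0.21, −0.18 and −0.47, so it lay above the median in white light and below it at each time. AT5G39980 had the same arrangement, with 0.91 in white light, against −0.22, −0.13, −0.14 and −0.62. AT2G39100 was above the median both in white light, at 1.90, and at each time of PSII light, at 0.69, 0.75, 0.41 and 0.74. AT4G16410, AT1G32520 and AT4G35660 had differences of 1.17, 1.17 and 1.08, and AT4G13550 completed the 9 with 1.07. PSAN came next at 0.90, short of 2-fold, and NTRC had 0.86.

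The genes with the largest differences in the low direction were AT5G66780 at −1.37, AT2G01400 at −1.35 and CCS at −1.11. UGT74D1 fell just short of 2-fold, with white light at 0.501 times the mean of the times. AT5G34870 had −0.68 in white light, against −0.05, 0.12, 0.23 and 0.50, and AT4G17650 had −0.81, against −0.01, 0.00, 0.01 and 0.23. Both were thus near or above the median in PSII light and below it in white light. AT5G11650 and TPP2 had differences of −0.83 each. XERICO had a difference of 0.09, and AT1G51350, second highest in white light, was level with its mean of 2.63 over the times.

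**Figure D5:**
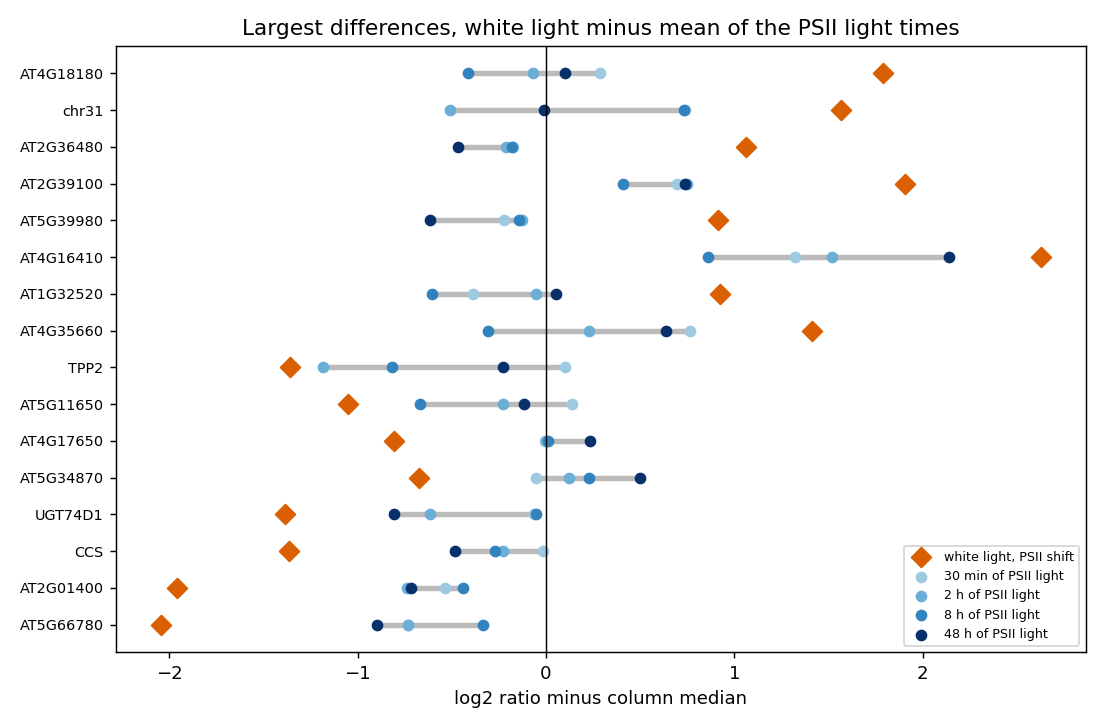
Shown are the genes that differ most between white light and the mean of the PSII light times, 8 in each direction, with the log2 ratio minus the column median on the horizontal axis. Diamonds are white light, circles the 4 times and grey lines the range of the times. All 16 diamonds lie outside the grey lines, as with AT2G36480 at 1.06. The genes were picked by this difference, which by itself favours diamonds outside the grey lines.

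Against 48 h of PSII light alone, the longest exposure, white light was 2-fold or more higher for 14 of 585 genes and lower for 18. Over all features the shares were 2.16% and 4.55%. The differences from 48 h ran from −1.46 to 2.40.

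Against the other white light column more genes differed. Of 597 genes 33 were 2-fold or more higher in the white light column described here and 38 lower, while over all features the shares were 7.05% and 5.55%. DI21 had the largest difference on the higher side at 2.48, with 2.28 here and −0.21 in the other column. AT4G18180, AT1G51350, AT2G46300 and AT2G18920 followed with 2.29, 2.23, 1.95 and 1.89. At the low end AT2G26340 had −1.46 here and 1.07 in the other column, a difference of −2.53. AT5G66780, TPP2, CCS and AT2G01400 had differences of −2.09, −1.70, −1.66 and −1.65. NADP-dependent malate dehydrogenase (AT5G58330) was nearly level, with 0.67 here and 0.70 in the other column.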

How the data were processed

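Total RNA of leaves was labelled with 33P by reverse transcription from a primer mix for 1827 genes and hybridised to nylon filters with 3292 gene-sequence tags, per the labels' protocols. The deposited values are linear ratios to a reference, 1 per spot and condition. How the 3 experiments were combined, and any background correction or scaling, is not given in the sources used. The signal over background is unknown, and the number of arrays limits the precision.

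The table held 3262 spots, of which 645 were paired with exactly 1 gene by the old platform annotation, 829 with several and 1788 with none. The gene table of TAIR10.1 held 642 of the 644 genes, and 89 carry a symbol of their own. Exact 0 was treated as missing, ratios were put on the log2 scale, the spots of 1 gene were averaged, and the column median over all features was subtracted, with Python 3.11.15, pandas 2.3.3 and numpy 2.4.6. Taking log2, centring and counting past 2-fold were tested on simulated data, whereas gene pairing, averaging of spots and differences were not. The 2-fold threshold is a size, not a test.

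Named were the 15 highest and 15 lowest genes, the 8 largest differences each way from the mean of the 4 times, the 5 each way from the other white light column, up to 6 genes at 0 in this column alone, and members of 16 keyword groups. The available tables hold no gene descriptions, so keywords were matched to symbols and synonyms only. The 13 role lists of 81 genes were therefore drawn up later from names in the gene table; their members, AT4G13550 and CBL are named outside the rule. Members and lists were chosen with earlier results of these data known. A planned search of promoter motifs was not run, since no sequences were used here. No build is named in the files, so no coordinates are given.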

Additional observations from a re-analysis of the deposited data

How the results depend on the processing

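With 1 column per condition nothing could be tested, and a planned filter on low values was not run, as the table gives ratios only. No paired analysis was possible because the labels give no replicates. Genes 2-fold or more above the median numbered 44; they were 27 as deposited, 25 after quantile normalization, 27 with a pseudocount of 0.432 and zeros kept, 102 at 1.5-fold and 16 at 3-fold. Genes as far below numbered 31; they were 91 as deposited, 11 after quantile normalization, 35 with the pseudocount, 114 at 1.5-fold and 3 at 3-fold. Whether more genes lie above or below 2-fold thus depends on the centre of the column, which by construction moves all genes together. White light exceeded the mean of the 4 times 2-fold for 9 genes; this was 14 against 48 h alone, 36 at 1.5-fold and 1 at 3-fold. It was lower for 3; this was 18 against 48 h alone, 30 at 1.5-fold, 0 at 3-fold, 5 without 2 h, 5 without 8 h and 6 without 48 h. The 35 with the pseudocount were the 35 genes listed at 0, and none of the 31 stayed past 2-fold. Both outcomes follow from the size of the pseudocount, so this setting is no check on the low genes. The 15 lowest genes moved to between −0.94 and −0.66 there. As deposited, after quantile normalization and for the other genes named by the rule no value moved as far, and no gene past 2-fold changed sign. Quantile normalization gave values for only 54 of 65 genes, since it needs a ratio in every column. Of the 15 lowest genes it left out AT4G31930, AT2G26340, AT3G03890, UGT74D1, AT1G29040 and AT1G05860. Of the list medians, that of the proteolysis and chaperone keyword group went to −1.19 after quantile normalization, which uses fewer genes.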

Other observations

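Features paired with a single gene made up 17.2% of those 2-fold or more above the median and 18.7% of those as far below, close to their share of 20.1% among all features with a ratio. Of 256 features 2-fold or more above the median, 64 were spots paired with several genes and 148 with none, and of 166 as far below, 35 and 100. The highest feature, at 9.94 times the median, was a spot paired with 3 genes, and the lowest, at 0.182 times, a spot paired with 2.

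Listed at 0 in white light, but with a ratio in all 9 other columns, were 8 genes, namely AT2G03140, AT2G28790, GH9B8, ATAB2, AT4G09970, AT4G15840, CSLA01 and AT5G55220, the last 2 named after their values were seen. ATAB2 lay between −0.77 and 0.59 in the other columns, and AT4G15840 between −0.33 and 0.16.

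The keyword groups held 34 genes, and 4 groups held none (translation, protein kinases, transport and unknown function). Groups bear the names of their keywords, and not every member has that role. White light medians were 0.73 for 5 genes of the light reaction group, −0.29 for 3 of the pigment group and −0.95 for 3 of the redox group. The median was 0.15 for 7 genes of the carbon group, which includes GH9B11, GH9B12 and GH9B16, listed above under cell wall. It was −0.21 for 5 genes of the dehydrogenase group, which includes the NDH subunits NdhS and NdhN. For 5 genes of the proteolysis and chaperone group, which includes the copper chaperone CCS, it was −0.09. The median of the redox group rests on SRX, and its mean was −0.02 with NTRC and CCS on opposite sides. The remaining groups had 1 or 2 genes with a ratio, some matched only by letters inside a longer word, such as LAS at 0.13 for pentatricopeptide proteins and THIC for zinc fingers.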
